A study of Mus musculus with 23 samples.

Results

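Bhmt and the other enzymes of the methionine cycle were followed in the ileum of male mice given pregnenolone 16α-carbonitrile (PCN), a steroid ligand of the mouse pregnane X receptor (PXR). The set was Bhmt, Bhmt2, Mat1a, Mat2a, Gnmt, Ahcy, Cbs, Cth and Mtr, 9 of the 37074 gene names on the array, carried by 15 of its 56605 non-control probes. Bhmt was chosen for the largest decrease with PCN, which it had in wild-type (WT) mice, and the others because they act in the same pathway. Of the 15 probes, 13 were among the 37161 probes of the deposited log2 table. The 2 others, 1 Bhmt probe and the sole Mat1a probe, were above background on 1 of 23 arrays each.

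WT mice were of the C57BL/6J strain, bought at 6 weeks of age and kept for 2 weeks before allocation. Mice lacking PXR (Pxr-/-) had been backcrossed to the same background and bred in house for 10 years, so genotype and breeding origin cannot be told apart, and their age was not given in the labels. PCN was injected into the abdomen at 100 mg/kg in corn oil once a day on 4 days, and the controls (CONT) received the oil alone. Fed mice were killed at zeitgeber time 6, which was 6 h after the last dose. There were 6 WT CONT, 5 WT PCN, 6 Pxr-/- CONT and 6 Pxr-/- PCN arrays, each of 1 mouse, hybridised in 2 wash batches that both held all 4 groups (2 or 3 arrays of each).

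The methionine cycle hands methyl groups from S-adenosylmethionine to many acceptors and rebuilds methionine from the homocysteine that is left. BHMT does the rebuilding with betaine, an oxidation product of choline, and is best known from liver and kidney, while methionine synthase (Mtr) does it with a folate and cobalamin in most tissues. Homocysteine that is not remethylated passes through cystathionine β-synthase (Cbs) and cystathionine γ-lyase (Cth) to cysteine.

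The median spot intensity per array was 74 to 106.5, over a local background of 19 to 28.5, and 60.9% to 67.3% of probes were above background. Arrays of a group correlated at 0.987 to 0.996 across probes, and no member probe was saturated. All 8 enterocyte markers and all 6 ileal enterocyte markers were above background on every array. The Nr1i2 probe, for the gene that encodes PXR, did not separate the genotypes. Its mean was 12.14 ± 0.16 (SD, n = 6) in WT CONT and 11.73 ± 0.36 (n = 6) in Pxr-/- CONT, with overlapping ranges (difference -0.41, limma adjusted p = 0.334). With no statement on whether it lies in the deleted part, it does not check the label. In bulk tissue, fewer cells of a type and less RNA per cell cannot be told apart.

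The 3 Bhmt probes read different stretches of the transcripts, which bears on how their values can be set side by side. By the array annotation, probe A_55_P2714597 starts at base 1995 of the Bhmt transcript and holds the polyadenylation signal AATAAA, and it lies at chromosome 13, 94386862 to 94386921 (mm9, minus strand). Probe A_55_P2103963 starts at base 1426 of the same transcript. Its 60 bases are open over all 20 codons in the frame that ends in the stop codon, shown here in capitals, so it reads the end of the coding sequence.
Bhmt probe A_55_P2103963: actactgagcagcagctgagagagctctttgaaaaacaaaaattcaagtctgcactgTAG
The array annotation maps only 5 bases of this probe to the genome, so no position is given for it. The remaining Bhmt probe, A_55_P2103969, belongs to a separate transcript record of the same gene.

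Bhmt and Bhmt2 are neighbours on chromosome 13 and are transcribed from the same strand, with 18338 bases between them in the RefSeq annotation of GRCm38.p6. The stretches just upstream of their annotated starts are shown because the neighbours had different values with PCN. Capitals mark AGGTCA or AGTTCA read on either strand, hexamers that many nuclear receptors recognise.
Bhmt, chr13:93637759-93638008, minus strand: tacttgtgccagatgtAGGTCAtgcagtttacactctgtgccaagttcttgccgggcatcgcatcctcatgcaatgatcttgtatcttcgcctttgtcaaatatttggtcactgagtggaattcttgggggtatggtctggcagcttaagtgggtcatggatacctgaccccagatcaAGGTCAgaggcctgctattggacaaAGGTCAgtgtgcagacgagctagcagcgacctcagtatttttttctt
Bhmt2, chr13:93674303-93674552, minus strand: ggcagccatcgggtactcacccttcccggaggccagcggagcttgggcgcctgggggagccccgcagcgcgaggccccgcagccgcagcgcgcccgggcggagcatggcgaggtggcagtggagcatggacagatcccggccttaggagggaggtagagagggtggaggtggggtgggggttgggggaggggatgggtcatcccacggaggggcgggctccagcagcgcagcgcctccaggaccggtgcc
The Bhmt stretch held 3 copies of AGGTCA and the Bhmt2 stretch held neither hexamer. Part of the Bhmt2 stretch lies in the next annotated gene, Dmgdh, which begins at base 93674436. Among 32851 RefSeq stretches of the same length, 24.2% held at least 1 of the hexamers, and the share with 3 copies was not counted. Of the 5 other members with an upstream sequence in RefSeq, Gnmt and Ahcy held 1 AGGTCA each and Mat2a, Cbs and Mtr held none. A direct repeat of the hexamers with 4 bases between them was in none of these 7 stretches and in 0.0244% of all. These matches describe letters and not sites.

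Bhmt was low on all 5 WT PCN arrays, from a group to which the study allocated 6 mice. At probe A_55_P2714597 the log2 signal was 8.01, 8.09, 8.37, 8.38, 9.41 and 9.49 in WT CONT, and 5.83, 6.13, 6.20, 6.66 and 7.73 in WT PCN. Every WT PCN array lay below every WT CONT array, a pattern shown by 1.27% of all probes. The means were 8.62 ± 0.66 (SD, n = 6) and 6.51 ± 0.74 (n = 5). Their difference was -2.13 (SE 0.37), a 4.37-fold lower signal and the largest decrease of the 37161 probes, of which 0.0915% were called lower. The next largest decrease, at a probe for an unnamed transcript, was -1.65 (SE 0.82). This contrast chose the gene, so the difference is a description without a test. It was -2.61 within wash batch 1 and -1.79 within wash batch 2.

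The coding probe A_55_P2103963 also had lower values in WT PCN than in WT CONT. Its values were 5.64 to 6.78 (median 6.03) in WT CONT, where all 6 arrays were above background. In WT PCN they were 4.71 to 5.50 (median 4.97), and none of the 5 arrays was above background. The groups did not overlap. The mean of WT CONT was 6.15 and the measured mean of WT PCN 5.04, and because the latter was not well above background the signal was at least 1.79-fold lower with PCN, taking for each WT PCN array the higher of its own value and the lowest value above background on that array. Over the 23 arrays the log2 values of both probes had a Pearson correlation of 0.955, and of 0.867 once group and wash batch means were removed. The probes share arrays and RNA, and the correlation is given as a description.

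Bhmt was also lower with PCN in mice without PXR. At A_55_P2714597 the log2 signal was 8.38, 8.61, 9.19, 9.77, 9.88 and 9.96 in Pxr-/- CONT, and 6.99, 8.07, 8.11, 8.25, 8.42 and 8.46 in Pxr-/- PCN. All 6 PCN arrays were below the CONT mean and 4 of 6 were below every CONT array, so the ranges overlapped. The means were 9.30 ± 0.68 (SD, n = 6) and 8.05 ± 0.54 (n = 6).

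The contrast was tested with limma over all 37161 probes. Bhmt was the largest decrease in WT and not here, but it was chosen with the results of both genotypes known, so the test is not independent of the choice. Bhmt fell by 1.25 on the log2 scale in Pxr-/- mice (SE 0.35, 95% interval -1.98 to -0.52, adjusted p = 0.0487). A probe counted as called where its adjusted p did not exceed 0.05 and it changed more than 1.5-fold, which 0.223% of all probes did downward in this contrast. This probe ranked 17 by decrease. The change was -0.93 within wash batch 1 and -1.57 within wash batch 2. The call was lost, with adjusted p of 0.0515 to 0.132, when any of 15 of the 23 arrays was left out. These were WT CONT replicates 2, 5 and 6, and WT PCN replicates 2, 4 and 5. The others were Pxr-/- CONT replicates 3, 4, 5 and 6, and Pxr-/- PCN replicates 1, 2, 3, 4 and 5. In the fits that lost the call the change was -1.32 to -1.01, and over all 23 it was -1.43 to -1.01.

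At the coding probe A_55_P2103963 the Pxr-/- CONT values were 5.97 to 7.13 (median 6.78) and the Pxr-/- PCN values 5.28 to 6.17 (median 5.74). The means were 6.69 ± 0.45 and 5.73 ± 0.30 (SD, n = 6 each), and 5 of 6 PCN arrays lay below every CONT array. It was above background on all 6 CONT arrays and on 5 of 6 PCN arrays. This probe fell by 0.97 (SE 0.22, limma adjusted p = 0.0169), and the call was kept when each array was left out in turn. It reads the same gene on the same RNA as A_55_P2714597, so this test is not independent of the choice of Bhmt either. The remaining probe, A_55_P2103969, lay between 4.91 and 5.63 over all arrays on the scanner's log2 scale and was at background in every group.

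**Figure D1:**
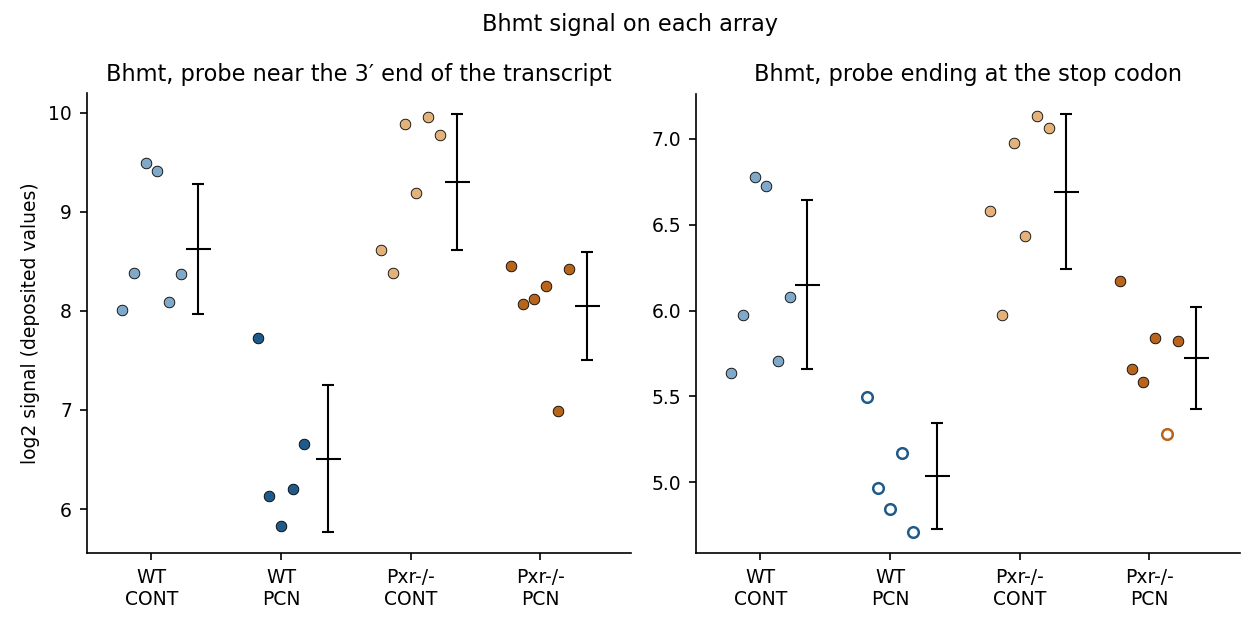
Log2 signal of the 2 measured Bhmt probes on each array (vertical axes, deposited values, each probe on its own scale) by group (horizontal axes). Points are arrays, open where the probe was not above background, and bars give the mean ± SD of 5 or 6 arrays; all WT PCN points lie below all WT CONT points, and the Pxr-/- ranges overlap.

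Whether the response was the same size in both genotypes was not settled by these arrays. At A_55_P2714597 the WT change minus the Pxr-/- change was -0.88 (SE 0.51). It was -1.68 within wash batch 1 and -0.21 within wash batch 2. At the coding probe, which was at background in WT PCN, it was -0.15 (SE 0.32). Because Bhmt was chosen on the WT change, these differences carry no test. In the oil-treated mice the Bhmt signal was 0.68 (SE 0.35) higher in Pxr-/- than in WT at A_55_P2714597 and 0.54 (SE 0.22) higher at A_55_P2103963. Under PCN it was 1.55 (SE 0.37) higher in Pxr-/- at A_55_P2714597. At A_55_P2103963, with WT PCN not well above background, it was at least 1.33-fold higher by the same bound as above. By mean signal at A_55_P2714597 the groups ran from Pxr-/- CONT through WT CONT and Pxr-/- PCN to WT PCN, and each neighbouring pair in this order overlapped.

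Marker genes of some cell types had shifted means beside Bhmt. Among epithelial lists the WT medians were 0.02 (enterocyte), 0.03 (ileal enterocyte), 0.07 (proximal small intestine), -0.02 (goblet and Paneth) and 0.07 (enteroendocrine). In Pxr-/- they were 0.04, -0.12, -0.16, 0.11 and 0.14 in the same order. Of these 5 lists only 1 marker was called, a proximal small intestine marker that was higher in Pxr-/-. BHMT is abundant in hepatocytes, and 7 of the 8 hepatocyte markers were measured. Of these, 6 had lower means with PCN in WT (median -0.40) and 5 in Pxr-/- (median -0.23), and none was called. Their summed signal was 6428 to 8356 in WT CONT and 3791 to 6388 in WT PCN, and 3912 to 6664 in Pxr-/- CONT and 2788 to 5001 in Pxr-/- PCN. The Alb probe, for albumin, was above background on all 23 arrays, with changes of -0.40 in WT and -0.23 in Pxr-/-. Tat had the lowest changes of the list (-1.01 in WT and -1.16 in Pxr-/-). Apoh went the other way in both genotypes (0.14 and 0.41), and Ttr did in Pxr-/- (0.25). The means of all 6 fibroblast and all 6 smooth muscle markers were higher with PCN in both genotypes. Their list medians were 0.34 and 0.37 in WT, and 0.71 and 0.53 in Pxr-/-. Of these, 1 fibroblast marker was called in WT, and 3 fibroblast and 2 smooth muscle markers in Pxr-/-. Over all probes 0.6% were called higher and 0.0915% lower in WT, and 0.724% higher and 0.223% lower in Pxr-/-. The 8 mitosis and crypt markers had a median of -0.17 in WT, where all 8 were lower, and of -0.33 in Pxr-/-. In Pxr-/- 6 were lower and 2, Lgr5 (0.26) and Olfm4 (0.13), were higher. None of the 8 was called. The largest list median in WT was that of the B cell markers (1.19), with 8 of 8 higher. In Pxr-/- 7 of the 8 B cell markers were higher (median 0.45), below the fibroblast median of 0.71. No B cell marker was called in either genotype. Their summed signal was 1844 to 2470 in WT CONT and 2282 to 14112 in WT PCN, and 1759 to 2528 in Pxr-/- CONT and 1911 to 5126 in Pxr-/- PCN, with overlap in both genotypes. Neutrophil markers had medians of 0.58 in WT (6 of 7 higher, 2 called) and 0.63 in Pxr-/- (5 of 7 higher, 3 called). All 8 macrophage markers were higher in both genotypes (medians 0.17 and 0.31), with 1 called in Pxr-/-, and all 6 T and cytotoxic cell markers were lower in both (-0.10 and -0.42), with none called. The part of these shifts in the Bhmt result was not tested.

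The rest of the methionine cycle did not follow Bhmt past the threshold in either genotype. Of the 8 other members 7 were measured, and 0 of 7 were called with PCN in WT, against 0.692% of all probes. In Pxr-/- 0 of 7 were called, against 0.947%. None was called for the difference between genotypes in the response (0.078% of all probes), for genotype without PCN (0.148%) or for genotype under PCN (0.366%). At an unadjusted limma p of at most 0.05, 0 of 7 passed in WT, where 11.8% of all probes did, and 1 of 7, Cbs, in Pxr-/-, where 19.6% did. At that level none passed in the other contrasts. The median change of the 7 was 0.01 in WT and -0.09 in Pxr-/-, where all probes had medians of -0.015 and -0.011. With so few probes called in all, a count of 0 of 7 is no result by itself, and the intervals are given. The 95% interval lay within 1.5-fold either way for 6 of 7 genes in WT and 5 of 7 in Pxr-/-, and within 2-fold for 7 of 7 and 6 of 7.

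**Figure D2:**
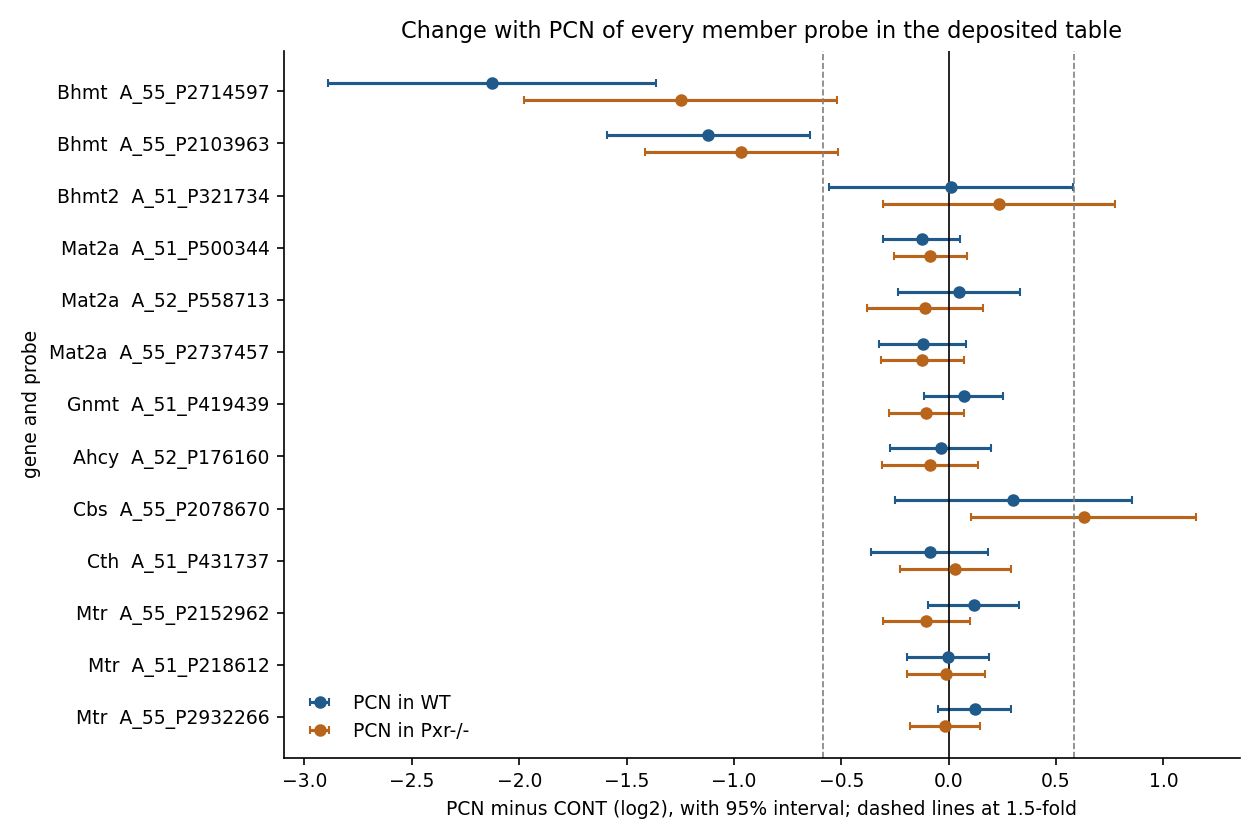
Change with PCN (horizontal axis, PCN minus CONT, log2) for each of the 13 member probes (vertical axis) in WT and Pxr-/-. Points are estimates of the fit and bars 95% intervals; the 2 Bhmt probes lie left of the 1.5-fold line in both genotypes, and the 11 other probes have changes of -0.13 to 0.63.

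Bhmt2, the neighbouring gene whose product remethylates homocysteine with S-methylmethionine, stayed within its spread. Its log2 signal was 5.77, 5.99, 6.26, 6.34, 6.34 and 6.71 in WT CONT and 5.76, 6.09, 6.28, 6.48 and 6.62 in WT PCN. In Pxr-/- CONT it was 5.45, 5.74, 5.76, 5.82, 6.95 and 7.07, and in Pxr-/- PCN 5.91, 6.01, 6.11, 6.37, 6.84 and 6.97. The groups overlapped throughout, and 2 Pxr-/- CONT arrays stood about 1 log2 unit above the other 4. The change with PCN was 0.01 in WT (95% interval -0.56 to 0.58) and 0.24 in Pxr-/- (-0.31 to 0.78).

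Methionine synthase (Mtr), which serves the other route back to methionine, was read by 3 probes. The brightest, A_55_P2152962, ran from 7.04 to 7.27 (median 7.18) in WT CONT and from 7.09 to 7.56 (median 7.27) in WT PCN. It ran from 7.05 to 7.56 in Pxr-/- CONT and from 6.97 to 7.43 in Pxr-/- PCN. Its change was 0.12 in WT (95% interval -0.10 to 0.33) and -0.11 in Pxr-/- (-0.31 to 0.10). The other Mtr probes changed by -0.0017 and 0.12 in WT, and by -0.01 and -0.02 in Pxr-/-, with adjusted p of 0.616 or more. Probe A_55_P2932266, close to the start of the transcript, was 0.19 higher in Pxr-/- CONT than in WT CONT (limma unadjusted p = 0.0245, adjusted p = 0.45). The other Mtr probes differed by 0.12 and -0.01 in that contrast.

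The makers of S-adenosylmethionine were Mat1a, the form known from liver, and Mat2a, the form of other tissues. The Mat1a probe lay at background, with scanner log2 values of 4.61 to 5.29 over the 23 arrays. Mat2a was high on every array, at 13.58, 13.67, 13.73, 13.84, 13.86 and 14.06 in WT CONT and 13.61, 13.63, 13.65, 13.67 and 13.75 in WT PCN. All 5 WT PCN arrays were below the WT CONT mean, inside the range of the controls. In Pxr-/- the values were 13.59 to 13.87 in CONT and 13.46 to 13.86 in PCN. The change was -0.13 in WT (95% interval -0.30 to 0.05, adjusted p = 0.622) and -0.09 in Pxr-/- (-0.26 to 0.08, adjusted p = 0.6). The 2 other Mat2a probes changed by -0.12 and 0.05 in WT and by -0.12 and -0.11 in Pxr-/-, so their signs differed in WT.

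Gnmt, a glycine methyltransferase that uses up S-adenosylmethionine, and Ahcy, which splits the S-adenosylhomocysteine left by methyl transfer, moved little. Gnmt ran from 6.15 to 6.66 in WT CONT, 6.18 to 6.54 in WT PCN, 6.26 to 6.51 in Pxr-/- CONT and 6.05 to 6.36 in Pxr-/- PCN. All 6 Pxr-/- PCN arrays were below the CONT mean, and the change was 0.07 in WT (95% interval -0.11 to 0.25) and -0.10 in Pxr-/- (-0.28 to 0.07). Ahcy ran from 7.66 to 8.30 in WT CONT, 7.81 to 8.14 in WT PCN, 7.62 to 8.26 in Pxr-/- CONT and 7.82 to 8.07 in Pxr-/- PCN. Its groups lay over one another, with changes of -0.04 (-0.27 to 0.20) and -0.09 (-0.31 to 0.14).

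Cbs, the entry to cysteine synthesis, had the widest range over arrays among the measured members besides Bhmt (7.05 to 9.05). Its log2 signal was 7.63 to 8.20 (median 7.97) in WT CONT and 7.82, 7.87, 8.44, 8.45 and 8.58 in WT PCN. In Pxr-/- CONT it was 7.05, 7.34, 7.76, 7.80, 8.27 and 8.72, and in Pxr-/- PCN 7.51, 8.13, 8.44, 8.69, 8.88 and 9.05. In WT 3 of 5 PCN arrays lay above all controls, and in Pxr-/- 5 of 6 lay above the CONT mean and 2 of 6 above all controls. The change was 0.30 in WT (95% interval -0.25 to 0.85, adjusted p = 0.725) and 0.63 in Pxr-/- (0.10 to 1.15, limma unadjusted p = 0.0212, adjusted p = 0.169), and neither passed.

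Cth, the next enzyme toward cysteine, ran from 10.95 to 11.55 in WT CONT, 10.80 to 11.45 in WT PCN, 10.99 to 11.45 in Pxr-/- CONT and 10.99 to 11.53 in Pxr-/- PCN. In WT 3 of 5 PCN arrays were below all controls. The change was -0.09 in WT (95% interval -0.36 to 0.19) and 0.03 in Pxr-/- (-0.23 to 0.29).

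**Figure D3:**
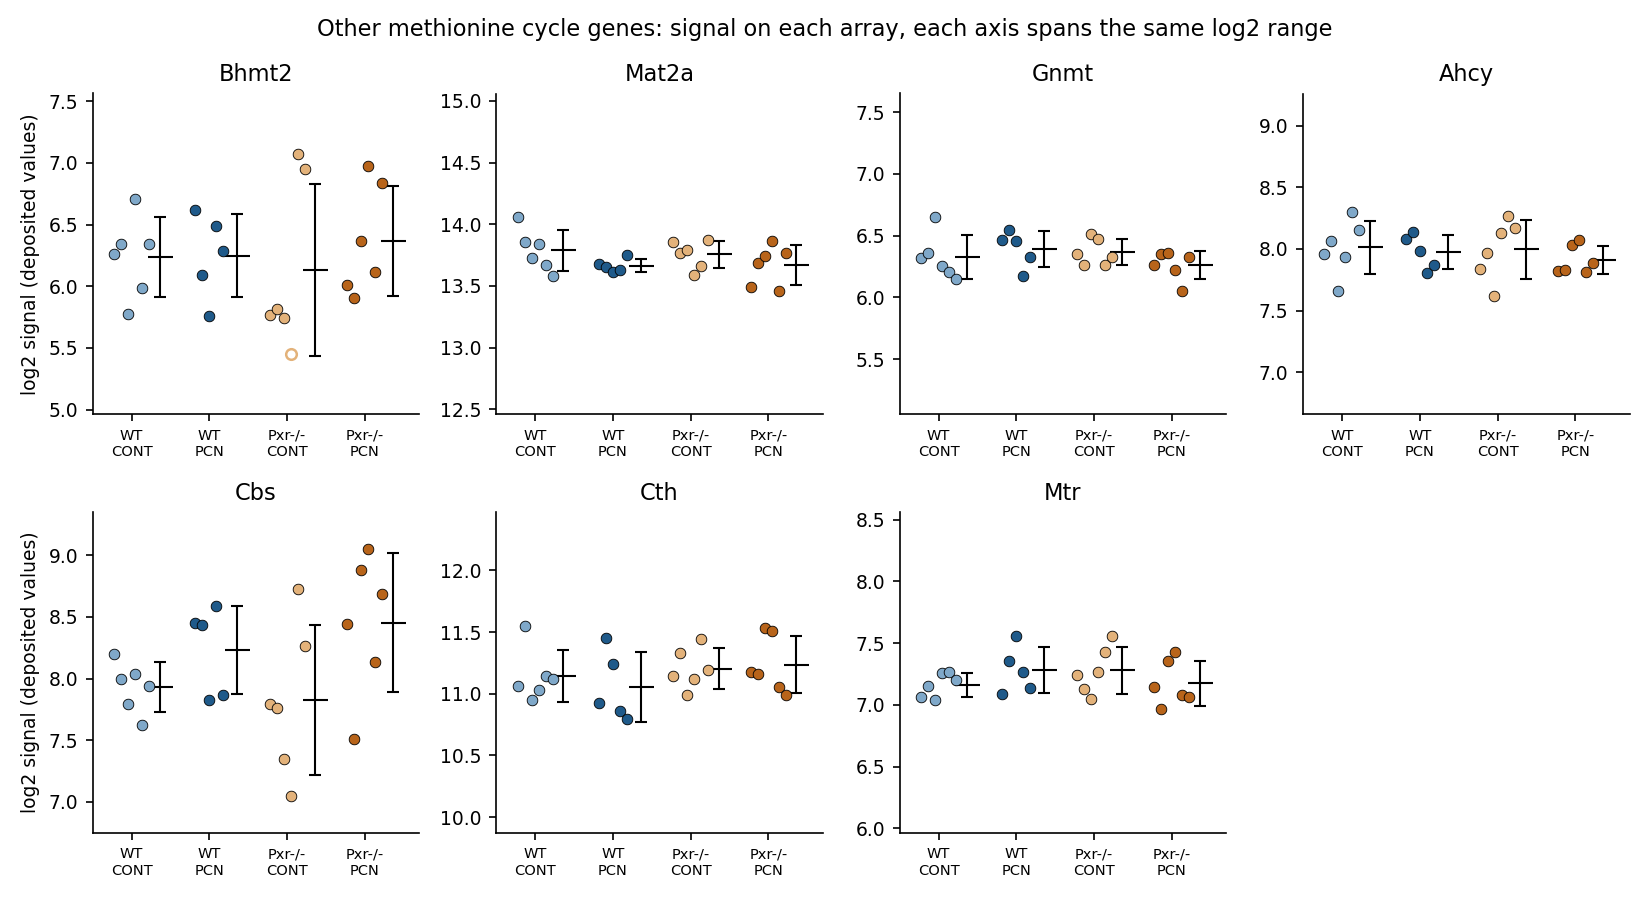
Log2 signal of the brightest probe of the 7 other measured members on each array (vertical axes, deposited values, every panel spanning the same log2 range) by group (horizontal axes). Points are arrays, open where not above background, and bars the mean ± SD of 5 or 6 arrays; PCN and CONT arrays overlap in every panel.

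Other one-carbon genes, from 6 lists around the cycle (choline and betaine, methyltransferases, folate, cobalamin, methionine salvage and polyamines, and cysteine, taurine and glutathione synthesis), changed in few cases. Of 81 listed genes 79 were measured by their brightest probe. In WT 1 of 79 was called higher (0.6% of all probes) and 0 were called lower (0.0915%). In Pxr-/- 3 of 79 were called higher (0.724% of all probes) and 0 were called lower (0.223%). Called or not, 27 genes had higher and 52 had lower means with PCN in WT, and 42 and 37 in Pxr-/-. The list medians over the 79 genes were -0.07 in WT and 0.03 in Pxr-/-. None of the 79 was called for the difference in response between genotypes, where 3 passed an unadjusted limma p of 0.05 (4.52% of all probes). At that level 21 of 79 passed in WT (11.8% of all probes) and 22 of 79 in Pxr-/- (19.6%).

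Nnmt, which methylates nicotinamide with S-adenosylmethionine, was the gene called in both genotypes. It ran from 9.25 to 9.57 (median 9.45) in WT CONT and from 9.42 to 10.67 (median 10.40) in WT PCN, with overlap. In Pxr-/- it ran from 9.24 to 9.79 (median 9.44) in CONT and from 9.98 to 10.61 (median 10.29) in PCN, with no overlap, as at 1.44% of all probes. Nnmt rose by 0.75 in WT (SE 0.17, limma adjusted p = 0.0213) and by 0.85 in Pxr-/- (SE 0.16, adjusted p = 0.00591). Within wash batches 1 and 2 the rise was 0.56 and 0.90 in WT and 0.84 and 0.85 in Pxr-/-. The WT call was lost without WT CONT replicate 2 or 4 or WT PCN replicate 1, 4 or 5 (adjusted p of 0.0503 to 0.0735). It was also lost when WT arrays were fitted alone (0.75, adjusted p = 0.103), and within a single wash batch the call was lost in both genotypes. The fibroblast and smooth muscle marker shifts given above ran in the same direction, and their part in the Nnmt result was not tested.

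Sardh, the mitochondrial sarcosine dehydrogenase that acts downstream of the BHMT product dimethylglycine, rose in Pxr-/-. It ran from 6.55 to 7.59 (median 7.20) in Pxr-/- CONT and from 7.60 to 8.50 (median 7.82) in Pxr-/- PCN, without overlap. The rise was 0.75 (SE 0.17, limma adjusted p = 0.0176), and the call was kept when each array was left out in turn. Within wash batches 1 and 2 it was 0.46 and 1.04. In WT Sardh ran from 7.51 to 8.17 in CONT and from 7.77 to 8.42 in PCN. Its change there was 0.21 (SE 0.18, limma adjusted p = 0.717). The Sardh means were 7.17 in Pxr-/- CONT and 7.92 in Pxr-/- PCN, against 7.89 in WT CONT and 8.10 in WT PCN. The Sardh difference between genotypes without PCN was not called on all 23 arrays. It was called without Pxr-/- CONT replicate 4 or Pxr-/- PCN replicate 5. The difference between the WT and the Pxr-/- change was -0.54 (SE 0.25, unadjusted p = 0.0386, adjusted p = 1.00 in limma), which did not pass. The Sardh call was lost when Pxr-/- arrays were fitted alone (adjusted p = 0.0628) and within each wash batch.

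Cubn, for the cobalamin receptor cubilin, rose by 0.59 in Pxr-/- (SE 0.16, limma adjusted p = 0.0428). It ran from 14.17 to 14.94 in CONT and from 14.82 to 15.58 in PCN, with overlap, and the rise was 0.38 and 0.81 within wash batches 1 and 2. The call was lost without WT CONT replicate 2, Pxr-/- CONT replicate 1, 2, 5 or 6, or Pxr-/- PCN replicate 1, 2 or 5 (adjusted p of 0.0502 to 0.118). It was also lost under 7 of 13 processing alternatives, with adjusted p up to 0.735. In WT the change was 0.24 (SE 0.17, limma adjusted p = 0.639). The Cubn means were 14.50 in Pxr-/- CONT and 15.09 in Pxr-/- PCN, against 15.16 in WT CONT and 15.40 in WT PCN. The Cubn difference between genotypes without PCN was not called on all 23 arrays, and was called without Pxr-/- PCN replicate 5.

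Without the fold threshold 3 of the 79 genes passed in WT (1.31% of all probes) and 10 in Pxr-/- (3.7% of all probes). Those in WT included Nnmt and the folate receptor gene Folr1 (0.45). Those in Pxr-/- with higher values included, besides the 3 called genes, Folr1 (0.42) and Gclc (0.55), for the first step of glutathione synthesis. Lower values were found for Mmab (-0.45), Mthfd1 (-0.36), the spermine synthase gene Sms (-0.30) and the sulfite oxidase gene Suox (-0.29). For genotype under PCN 1 of 79 passed in this way, where 0.627% of all probes did. The genes next to BHMT in choline breakdown did not pass. Chdh, which makes betaine aldehyde from choline, changed by -0.32 in WT (adjusted p = 0.349) and -0.0031 in Pxr-/-. Dmgdh, which takes up dimethylglycine and is the next gene after Bhmt2 on chromosome 13, changed by -0.20 in WT (adjusted p = 0.711) and -0.22 in Pxr-/- (adjusted p = 0.474). It was above background on 8 of 23 arrays.

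**Figure D4:**
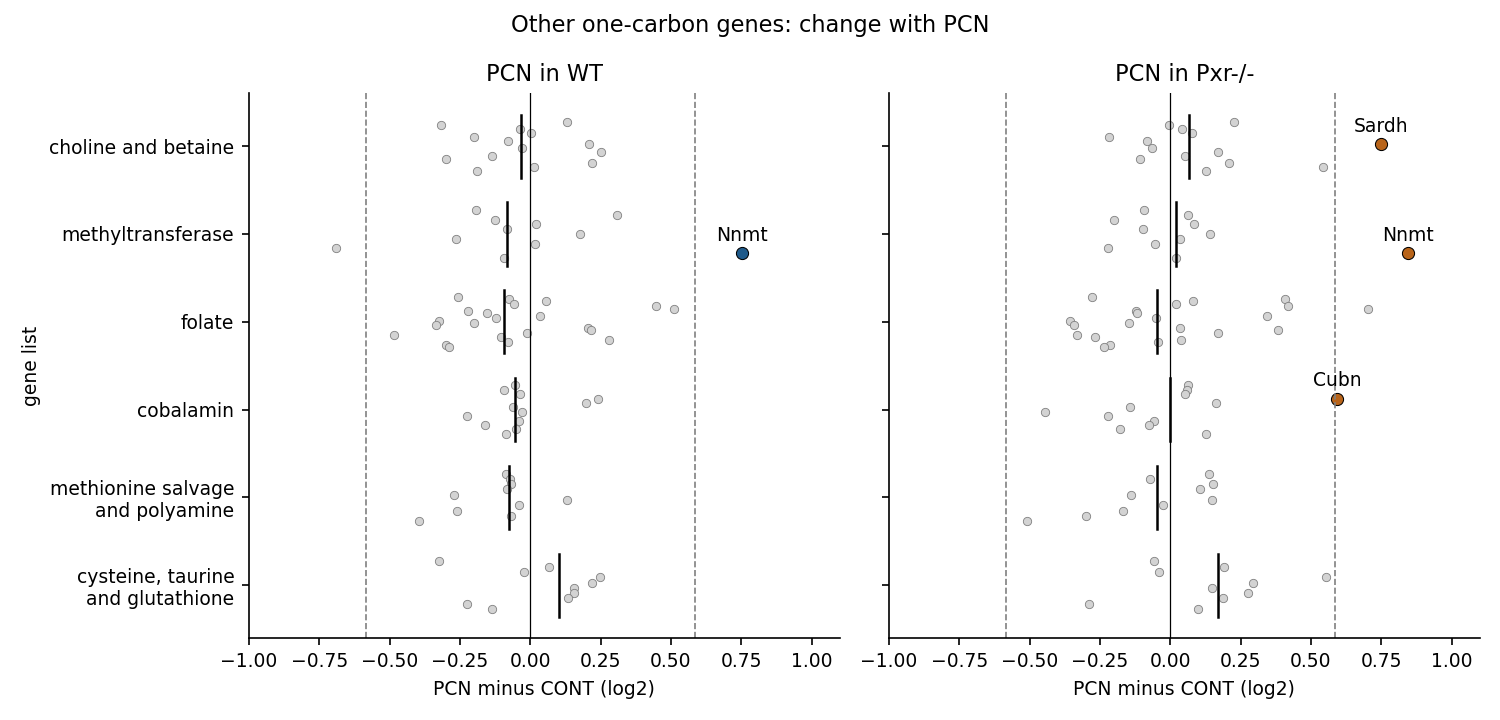
Change with PCN (horizontal axes, PCN minus CONT, log2) of the 79 measured genes of 6 one-carbon lists (vertical axis) in WT (left) and Pxr-/- (right). Points are genes, vertical bars list medians and dashed lines 1.5-fold; coloured, named points are the called genes, 1 in WT and 3 in Pxr-/-.

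Across the 23 arrays the genes whose brightest probe was most like the Bhmt probe A_55_P2714597, of 23911 gene names ranked, were Ubxn8, Usp47, Acot11, Tnfaip8l3 and Gmppa. Their Pearson correlations were 0.865, 0.845, 0.825, 0.824 and 0.817, and 0.594, 0.671, 0.330, 0.517 and 0.643 after removal of group and wash batch means. The points share the 4 groups and the arrays, so these are descriptions. Acot11, an acyl-CoA thioesterase gene, changed by -0.51 with PCN in WT (SE 0.09) and by -0.24 in Pxr-/- (SE 0.08). Tnfaip8l3 changed by -0.48 in WT (SE 0.15) and by -0.61 in Pxr-/- (SE 0.14). Both were picked for likeness to Bhmt on the same arrays, group differences included, so these changes carry no test. The other members were far down this ranking. Mat2a came highest among them at 0.311, and Bhmt2 stood at 0.145, with 0.440 after removal of the means. Cbs was lowest at -0.168.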

How the data were processed

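Total RNA of the ileum (150 ng per sample) was labelled with Cy3 and hybridised to single-colour Agilent arrays, read by the authors with Agilent Feature Extraction 10.10.1.1. Per the file headers, scanner values are intensity, the linear brightness of a spot. Log2 values make up the table that the authors deposited, which the study's methods describe as filtered, corrected for wash batch and normalised with CrossNorm; the filter rule is not given in the sources used here. All its columns held 1 set of values (median 8.02) and tracked the scanner medians (Spearman 0.9995 to 0.9997 across probes). These values were used as deposited, since the choice of genes was made on them, and scanner intensity served for above-background calls and alternatives. The number of arrays limits the precision.

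limma 3.58.1 (R 4.3.3) was fitted to all 23 arrays with 4 groups and wash batch, 2-sided, with Benjamini-Hochberg adjustment over 37161 probes. The 5 contrasts were PCN in WT, PCN in Pxr-/-, their difference (WT minus Pxr-/-), and Pxr-/- minus WT without and under PCN. Calls needed an adjusted p no higher than 0.05 and more than 1.5-fold change. Named were every probe of the 9 genes, one-carbon genes called in any contrast, the 5 genes most correlated with Bhmt, and Nr1i2; genes past the adjusted p alone, and Chdh and Dmgdh, were named after their values were seen, and some of the former are not reported here. Probe names follow the array's own gene column, and upstream sequences follow RefSeq (GRCm38.p6), which held 7 of the 9 genes. The genes and lists were chosen with earlier results of these data known. The fit was tested on simulated data. Alternatives covered the signal, background correction, centring, probe filter, batch, slide, replicate number, samples in the fit, fold threshold and each array left out. The authors' methods describe liver; ileum arrays are taken to have been handled alike.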

Additional observations from a re-analysis of the deposited data

Results flagged for a closer look

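Of 52 group and probe combinations examined for a sample far from the others, 2 stood out, where chance gives about 1 in 20, or 2.6. In Pxr-/- PCN, replicate 5 had a Bhmt signal of 6.99 at probe A_55_P2714597, with the nearest of the other 5 arrays at 8.07. Without this array the Bhmt change with PCN in Pxr-/- was -1.01 (limma adjusted p = 0.132), and 232 probes were called in that contrast in place of 352. In WT CONT, replicate 2 had a Cth signal of 11.55 at probe A_51_P431737, with the nearest array at 11.15. Cth was not called in any contrast with or without it.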

How the results depend on the processing

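The Bhmt decrease in WT kept its direction under all 13 alternatives (-2.65 to -1.78) and with each array left out (-2.42 to -1.94). In Pxr-/- its direction was kept but the call was lost with the processed signal (-1.36, limma adjusted p = 0.0794), median centring (-1.27, 0.0531), no probe filter (-1.25, 0.0731), slide as a fixed block (-1.23, 0.0899), Pxr-/- arrays alone (-1.25, 0.0666), wash batch 1 (-0.93, 0.673) and wash batch 2 (-1.57, 0.144). Deviations of arrays of the same replicate number correlated at -0.18 to 0.02 in WT and at -0.20 to 0.42 in Pxr-/- (1 of 6 pairs over 0.1). Between genotypes without PCN the correlations were -0.04 to 0.36 (2 of 6 pairs over 0.1). So few pairs cannot settle whether the numbers pair mice, and the main fit used no pairing. With the replicate block the Bhmt change in Pxr-/- was -1.25 (adjusted p = 0.0781) and the probes called fell from 352 to 303. Leaving out each array gave -1.43 to -1.01. The coding Bhmt probe lost its Pxr-/- call with slide as a fixed block (-0.83, 0.0564) and within the wash batches (-0.74 and -1.19), and its difference between genotypes changed sign with normexp (0.017) and in wash batch 2 (0.12). At background in WT PCN, it changed there by -2.89 with the processed signal and by -0.65 with normexp.

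No methionine cycle gene besides Bhmt was called under any alternative or without any array, though 61 of 704 changes took the other sign, and 83 of 1265 with an array left out. Other one-carbon genes called in Pxr-/- numbered 0 in wash batch 1, 1 in wash batch 2, 1 with those arrays alone and 10 without the fold threshold (2 to 4 with arrays left out). In WT the numbers were 0, 0, 0 and 3 (0 to 1). For genotype under PCN 1 passed without the fold threshold, and for genotype without PCN 1 did with median centring, 2 with slide as a fixed block and 0 to 2 with arrays left out. The causes were not tested. Probes called in WT numbered 257, and 47 and 49 within the wash batches, which hold fewer arrays (Pxr-/- 352, 10 and 159). For genotype without PCN slide as a fixed block gave 257 in place of 55, and these arrays alone 146, and for the interaction it gave 17 in place of 29.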
